A study of Mus musculus with 40 samples.

Results

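The 41 genes described here drive the cell cycle and the copying of DNA. They are the rows of the deposited count table that carry the symbols of a list of replication and mitosis genes, 41 of 54087 genes in the table, and all 41 were counted in every tumor. By role they fall into entry into S phase (Ccne1, Ccne2, E2f1, Mybl2), licensing and the replication fork (Mcm2 to Mcm7, Gins2, Pcna), nucleotide supply (Rrm1, Rrm2, Tyms), mitotic cyclins with their kinase and regulator (Cdk1, Ccna2, Ccnb1, Ccnb2, Foxm1), mitotic kinases and checkpoint (Plk1, Aurka, Aurkb, Bub1, Bub1b, Ttk, Birc5, Cdca8), kinetochore, spindle and cytokinesis (Cenpa, Cenpe, Cenpf, Kif11, Kif20a, Kif23, Nusap1, Tpx2), mitotic exit (Cdc20, Ube2c, Cdca3), and chromatin and topoisomerase (Mki67, Top2a). The 15 genes of the first 3 roles are called G1/S genes below, and the other 26 are called G2/M genes.

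The RNA came from 40 BALB/c mice of 6 to 12 weeks that carried a subcutaneous tumor of CT26, a mouse colon carcinoma line that grows in mice of its own strain. Each mouse received 1000000 CT26 cells, intraperitoneal antibodies on days 6, 9 and 12, and gave its tumor on day 13, and the 8 groups held 5 mice each. The groups received an isotype control antibody (motavizumab, a mIgG2a), anti-GARP:TGF-β1 clone 58A2 as a WT mIgG2a or in its FcD form that does not bind mouse Fcγ receptors, anti-TGF-β clone 1D11, anti-PD-1 in an Fc-silent form (FcS), or anti-PD-1 FcS combined with each of the other 3 antibodies, which are called the WT, the FcD and the TGF-β combination below. GARP presents latent TGF-β1 on regulatory T cells, and PD-1 is an inhibitory receptor of T cells. RNA was extracted from fragments of the tumors, and how a fragment was chosen is not given in the sources used here. CT26 cells, leukocytes and stroma of the fragment all contributed RNA, and in such samples fewer cells of a type and less RNA per cell cannot be told apart. All mice carried the same cell line and the same antibody schedule, and no untreated mice were analysed here.

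Cells that commit to division switch on cyclin E and E2F target genes, load the MCM helicase onto replication origins, and supply nucleotides for the new DNA. Later, cyclins A and B with Cdk1 drive entry into mitosis, the Aurora and Polo kinases build the spindle, and the anaphase-promoting complex with Cdc20 and Ube2c degrades the cyclins at mitotic exit. Transcription of the late genes is known to use a pair of promoter elements, the CHR element and the CCAAT box, and that of the early genes the E2F element. Both tumor cells and dividing leukocytes express these genes, so their level in tumor tissue is a mixture.

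The promoters are shown because the elements known to time these genes can be read in them. RefSeq windows on GRCm38.p6, from 250 bases before to 50 bases after the transcription start, were found for 33 of the 41 genes. Below are stretches of 80 bases from 4 G2/M genes with a CHR element (Mki67, Top2a, Cdk1, Cdc20), from Ube2c, a G2/M gene with CCAAT boxes in its stretch, and from the helicase genes Mcm5 and Mcm2. Capitals mark the CHR element, with the letters TTTGAA on either strand, and the CCAAT box, with the letters CCAAT on either strand, so that the reverse complements are in capitals too and overlapping boxes run together. Mki67, encoding the proliferation antigen Ki-67, is read from chr7:135716469-135716548, minus strand. Top2a, encoding the topoisomerase that untangles chromosomes, is read from chr11:99024191-99024270, minus strand. Cdk1, the mitotic kinase, is read from chr10:69352939-69353018, minus strand. Cdc20, an activator of the anaphase-promoting complex, is read from chr4:118437353-118437432, minus strand. Ube2c, the ubiquitin-conjugating enzyme of that complex, is read from chr2:164769740-164769819, plus strand. Mcm5 is read from chr8:75109429-75109508, plus strand, and Mcm2 from chr6:88898781-88898860, minus strand.
Mki67: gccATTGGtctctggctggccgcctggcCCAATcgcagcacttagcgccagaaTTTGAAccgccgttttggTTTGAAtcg
Top2a: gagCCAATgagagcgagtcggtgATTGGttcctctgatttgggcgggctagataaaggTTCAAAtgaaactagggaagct
Cdk1: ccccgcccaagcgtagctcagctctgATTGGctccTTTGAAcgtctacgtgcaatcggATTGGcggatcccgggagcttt
Cdc20: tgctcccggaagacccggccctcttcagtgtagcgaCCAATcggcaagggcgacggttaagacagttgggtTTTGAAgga
Ube2c: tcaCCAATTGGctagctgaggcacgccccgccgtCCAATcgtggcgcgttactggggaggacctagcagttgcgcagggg
Mcm5: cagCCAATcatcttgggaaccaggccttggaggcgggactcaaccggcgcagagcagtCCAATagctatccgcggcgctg
Mcm2: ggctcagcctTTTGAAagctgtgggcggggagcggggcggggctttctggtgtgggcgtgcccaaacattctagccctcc

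Searched on both strands, TTTGAA was found in the windows of 17 of the 33 genes (51.5%), against 20.2% of the 27025 genes with such a window. A CHR element in either of 2 forms, TTTGAA or TTTAAA, was found in 23 of the 33 genes (69.7%, against 30.6% of all). These were 19 of the 21 G2/M genes and 4 of the 12 G1/S genes with a window. CCAAT was found in 27 of the 33 (81.8%, against 41.1%), and CCAAT together with a CHR element in 21 (63.6%, against 12.2%), 18 of them G2/M genes. An E2F element, searched as TTTGGCGC, TTTCCCGC or TTTCGCGC, was found in 5 of the 33 (15.2%, against 2.12%), 4 of them G1/S genes. Among the 9909 genes with a window that were also tested in the count table, the shares were 14.3% for TTTGAA, 22.7% for a CHR element in either form, 42.7% for CCAAT, 9.27% for both together and 3.94% for the E2F element. The CCAAT letters were in 19 of the 21 G2/M genes and also in 8 of the 12 G1/S genes. A match is a description of letters in these windows and says nothing of what binds there.

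Between 11931730 and 20680548 reads were counted on genes per tumor (median 14030511), and the 41 genes took 63030 to 119369 of them, or 0.383% to 0.666% (median 0.576%). The lowest count of any of the 41 genes in a tumor was 208, for Ccne2, so counting error was small beside the spread between mice. Levels are given as counts per 1000000 counted reads (CPM) after TMM scaling, and log2 CPM with a prior count of 2. The library numbers in the labels run from 41 to 80, and the libraries 41 to 60 and 61 to 80 differ in sex-linked transcripts (Ddx3y counts of 91 to 428 against 0, Xist counts of 0 to 6 against 784 to 12701), with 2 or 3 mice of each group on each side. Of the 14760 genes tested, 248 (1.68%) differed between these sides in edgeR's quasi-likelihood test, and none of the 41 genes was among them. At an unadjusted p under 0.05, 3 of the 41 (Cdc20, Plk1 and Kif20a) were higher in libraries 61 to 80, against 5.47% of all genes, and 0 were lower, against 7.03%. The log2 fold change between the sides was below 0 for 9 of the 41 (background 54.2%). Without library 77, 10 of the 41 were higher in libraries 61 to 80 (6.67% of all genes), and Cdc20 and Kif20a had edgeR adjusted p = 0.0166 and 0.0339. Without libraries 71 and 77, 14 were higher (7.68%). Library 77, the fifth mouse of the WT combination, stood apart with the highest summed level of 6 leukocyte markers (4388 CPM, rank 1 of 40) and the lowest of the fibroblast markers (1176 CPM, rank 40 of 40). It also ranked 1 of 40 for the endothelium markers (458.4 CPM) and 3 of 40 for the skin epithelium markers (17.99 CPM). Library 71, the fourth mouse of the FcD combination, had the highest summed colon epithelium markers (557.7 CPM, against 308.1 CPM in library 77, the next). It also ranked 1 of 40 for the skin epithelium markers (28.66 CPM) and 2 of 40 for the fat markers (630.7 CPM). Library 48, the second mouse of anti-TGF-β, had the highest summed fibroblast (3350 CPM), fat (712.5 CPM) and neutrophil markers, ranked 2 of 40 for the leukocyte markers, and had the lowest colon epithelium markers (57.31 CPM). The main counts and medians that library 77 moves are given without it as well.

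Per kilobase of transcript, the median level over the 40 tumors ran from 8.55 CPM per kb for Ccne2, a cyclin E, to 273 CPM per kb for Ube2c. The genes varied little within groups. The median within-group SD of the 41 genes was 0.188 on the log2 CPM scale, against 0.249 for all genes tested, from 0.115 for Rrm1, a subunit of ribonucleotide reductase, to 0.285 for Kif11, a spindle motor. The highest tumor exceeded the lowest by 1.35-fold for Rrm1 and by 2.90-fold for Cdca3, a G2/M gene grouped above under mitotic exit. In the order by level most neighbours lay closer to each other than this spread.

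Most of the 41 genes varied together from tumor to tumor, and Mki67 did so least. The log2 CPM of each gene was set against the mean of the other 40 genes over the 40 tumors, which share library, depth and treatment, so the values are a description. The median Pearson r was 0.767 with the highest r for Ccna2, the cyclin of S phase and early mitosis (0.948). The lowest r was 0.008, for Mki67, and Kif11 (0.309), E2f1 (0.328), Ccne2 (0.398) and Mcm4 (0.49) were also below 0.5. With group means removed the median r was 0.744, the lowest was still Mki67 (0.134), and the r of Ccna2 was 0.966. Mki67 is taken up below with transcript length.

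**Figure D1:**
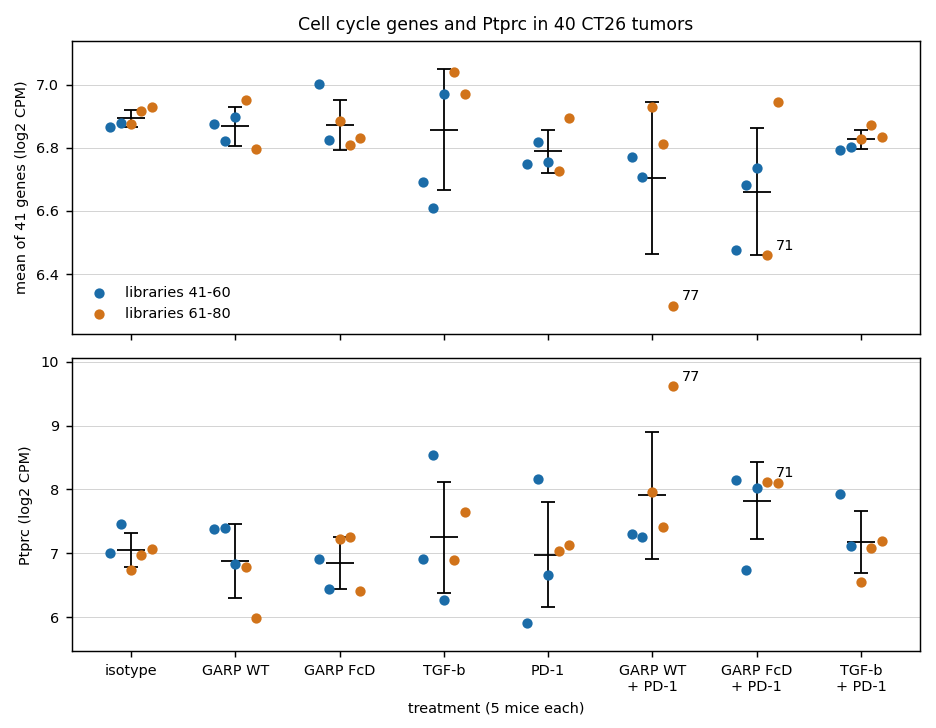
Mean log2 CPM of the 41 genes (top) and log2 CPM of Ptprc (bottom) in each of the 40 tumors by treatment, colored by library number, with the mean and SD of the 5 mice of each group in black and libraries 71 and 77 marked. The isotype tumors lie between 6.87 and 6.93 in the top panel, while those of the combinations with anti-GARP:TGF-β1 spread from 6.30 to 6.95 and library 77 is lowest in the top panel and highest in the bottom one.

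Averaged over the 41 genes, the isotype tumors were close to each other, with mean log2 CPM of 6.87, 6.88, 6.88, 6.91 and 6.93. With the WT combination the means were 6.77, 6.71, 6.93, 6.81 and 6.30, and 4 of the 5 tumors were below all isotype tumors. With the FcD combination they were 6.48, 6.68, 6.74, 6.46 and 6.95, with 4 tumors below and 1 above all isotype tumors. The anti-TGF-β tumors were spread as widely, with means of 6.69, 6.61, 6.97, 7.04 and 6.97, so that 2 were below and 3 above all isotype tumors. The plot of the mean by treatment shows that these 3 groups were wider than the isotype group. The difference from isotype was -0.19 with the WT combination (6.70 ± 0.24 against 6.89 ± 0.03, SD, n = 5) and -0.23 with the FcD combination (6.66 ± 0.20, n = 5). Within libraries 41 to 60 and 61 to 80 it was -0.13 and -0.23 for the WT combination and -0.24 and -0.20 for the FcD combination. Without library 77 the difference of the WT combination was -0.09, and -0.04 within libraries 61 to 80. For the FcD combination it ran from -0.30 to -0.18 with 1 mouse left out. With anti-PD-1 alone the difference was -0.10, and -0.10 on each side of the library numbers. With the TGF-β combination it was -0.07, and 4 of the 5 tumors were below all isotype tumors. The remaining 3 treatments differed from isotype by -0.04 (anti-TGF-β, from -0.08 without library 72 to 0.03 without library 48), -0.03 (anti-GARP:TGF-β1 WT) and -0.02 (anti-GARP:TGF-β1 FcD). Since the members were chosen with results known, this mean is given without a test, and all 7 differences share the same isotype tumors.

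**Figure D2:**
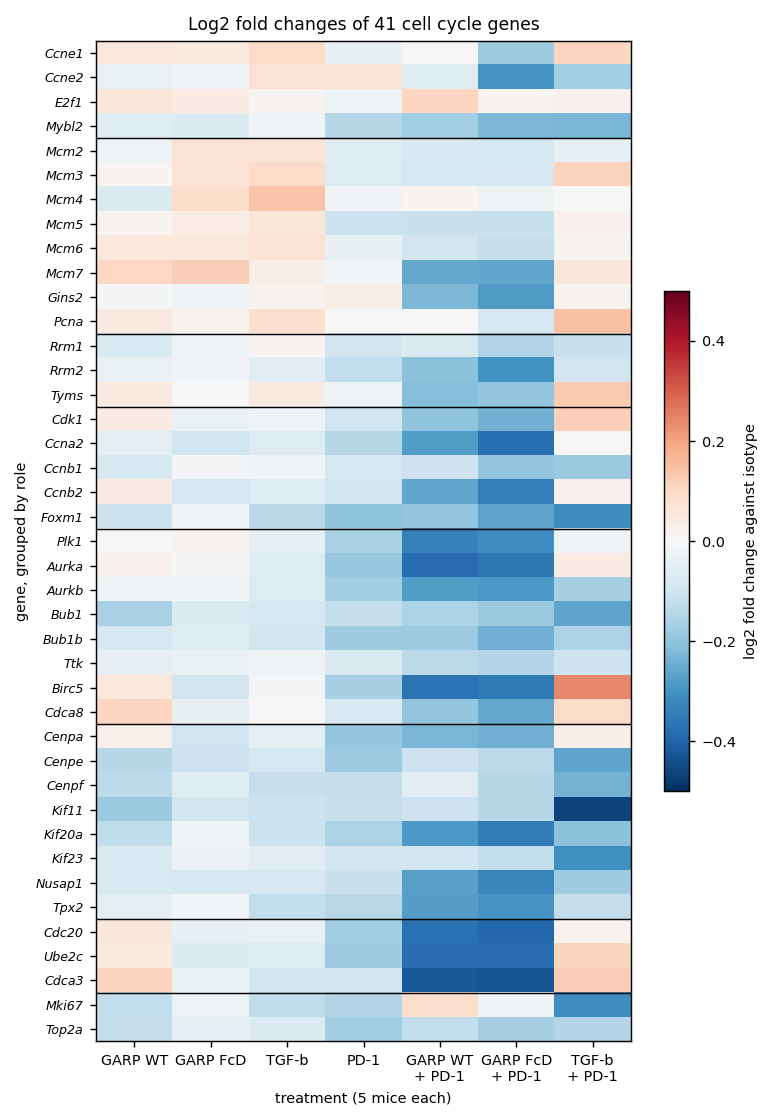
Log2 fold changes against isotype (color, 5 mice against 5) of the 41 genes, in rows by role, for the 7 treatments in columns. The columns of the WT and FcD combinations with anti-PD-1 are mostly blue, down to -0.43 for Cdca3 in each, while that of the TGF-β combination holds both signs, from -0.46 (Kif11) to 0.24 (Birc5).

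Against isotype, most of the 41 genes had a log2 fold change below 0 with the WT combination, but no gene passed the adjusted test and much of the difference came with 1 tumor, library 77. None of the 41 genes had an adjusted p under 0.05 in edgeR's quasi-likelihood test, nor did any of all 14760 genes tested (0%), and DESeq2's Wald test called 0 of the 41. At an unadjusted p under 0.05, 15 of the 41 genes were lower (background 7.47% of all genes) and 0 were higher (background 13.2%) by edgeR. DESeq2, which was given the genes without the filter on low counts, gave 15 and 0 as well (3.65% and 7.65% of its genes). The log2 fold change was below 0 for 37 of 41 genes (background 48.1%), with a median of -0.18 against 0.01 for all genes. Since the 41 genes varied together, their signs are not separate observations, here or in the comparisons below. Of the 26 G2/M genes 14 were among the 15 (median -0.22), and of the 15 G1/S genes only Gins2, a subunit of the replicative helicase, was (median -0.09). Without library 77 the count of 15 was 0 (3.04% of all genes were then lower), the median was -0.06 (below 0 for 31 of 41), and those of the G2/M and G1/S genes were -0.15 and -0.02, so the count rests on that tumor. By role the lowest median was that of Cdc20, Ube2c and Cdca3 (-0.38, and -0.26 without library 77), and all 3 have transcripts under 2000 bases. The 10 members under 2000 bases had a median of -0.33 and the 6 of at least 4500 bases one of -0.11, and with the trend over transcript length described below removed these were -0.26 and -0.23.

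Cdca3 (chr6:124829547-124833701, plus strand, 6 exons; GRCm38 positions of genes are from GENCODE) had the lowest log2 fold change with the WT combination. Its level was 80.73, 77.70, 117.5, 83.92 and 85.76 CPM in the isotype tumors and 73.00, 75.50, 76.08, 66.19 and 41.02 CPM in those of the WT combination. All 5 treated tumors were thus below all 5 controls, and the lowest value is library 77. This is a log2 fold change of -0.43 ± 0.16 (SE; edgeR quasi-likelihood test, adjusted p = 0.164). Ube2c had 266.1, 269.1, 314.6, 290.6 and 294.6 CPM with isotype and 239.9, 228.7, 246.7, 250.2 and 137.3 CPM with the WT combination, again with no overlap (log2 fold change -0.38 ± 0.15, edgeR adjusted p = 0.169). Without library 77 the log2 fold changes were -0.29 ± 0.15 for Cdca3 and -0.25 ± 0.14 for Ube2c. The third isotype tumor, library 63, was the highest control for both. Its slope of long over short transcripts, described below, was -0.52, against 0.14 to 0.23 in the other isotype tumors. Leaving out library 63 gave 10 of the 41 genes lower at an unadjusted p under 0.05 (5.73% of all genes), in place of 15 (7.47%). In all, 6 of the 41 genes were lower with no overlap between the groups (Cdk1, Aurka, Birc5, Cenpa, Ube2c and Cdca3; background 1.62% of all genes), and 0 were higher with no overlap (background 1.35%).

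Among the 8 genes of mitotic kinases and checkpoint, 5 were lower with the WT combination at an unadjusted p under 0.05 (the kinases Plk1, Aurka and Aurkb, and the passenger complex subunits Birc5 and Cdca8; median of the 8 -0.24, background 7.47% of all genes). Without library 77, 0 of the 8 were (median -0.16). Aurkb, the kinase of the chromosomal passenger complex (chr11:69045647-69051664, plus strand), had the smallest p of the 41 genes. It had 124.7, 134.5, 128.3, 130.9 and 134.5 CPM with isotype and 114.7, 106.5, 131.1, 113.9 and 71.84 CPM with the WT combination. The groups overlap through the third treated tumor, at 131.1 CPM. Its log2 fold change was -0.28 ± 0.10 (edgeR unadjusted p = 0.0107, adjusted p = 0.162), and -0.16 ± 0.09 without library 77. Plk1, the Polo kinase of mitotic entry, had 77.33, 72.32, 78.45, 82.90 and 78.90 CPM with isotype and 64.54, 52.18, 77.73, 66.85 and 47.50 CPM with the WT combination (log2 fold change -0.34 ± 0.13, edgeR adjusted p = 0.164; -0.26 ± 0.13 without library 77). Bub1, a checkpoint kinase, had a log2 fold change of -0.16 ± 0.11 (edgeR adjusted p = 0.397; -0.06 ± 0.10 without library 77).

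Cdk1 had 172.6, 173.3, 185.1, 171.5 and 171.2 CPM with isotype and 163.4, 169.5, 163.7, 155.8 and 106.9 CPM with the WT combination. No treated tumor reached a control, with 4 of the 5 between 155.8 and 169.5 CPM, and the log2 fold change was -0.20 ± 0.12 (edgeR adjusted p = 0.308), and -0.10 ± 0.11 without library 77. Ccnb1, a cyclin B, had a log2 fold change of -0.10 ± 0.12 (edgeR adjusted p = 0.631), and 0.02 ± 0.11 without library 77, where its sign turns. Foxm1, the transcription factor of the G2/M program, had 137.7 CPM in library 77 against 233.9 to 310.1 CPM in the other 4 tumors of the group, and a log2 fold change of -0.19 ± 0.14 (-0.04 ± 0.11 without library 77). Cenpa, the histone of centromeres, was lower with no overlap (log2 fold change -0.23 ± 0.10, edgeR adjusted p = 0.191). Kif11 had a log2 fold change of -0.10 ± 0.17 (-0.03 ± 0.18 without library 77).

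Among the replication genes and the markers Mki67 and Top2a, several were close to isotype with the WT combination and others were not. E2f1, the factor of S phase entry, had the highest log2 fold change of the 41 genes (0.11 ± 0.12, edgeR adjusted p = 0.606; 0.20 ± 0.11 without library 77). Mki67 had 237.5, 274.9, 192.5, 226.2 and 251.5 CPM with isotype and 226.3, 200.4, 277.7, 272.8 and 280.8 CPM with the WT combination. Its highest treated tumor is library 77, in which most of the other genes were lowest, and its log2 fold change was 0.09 ± 0.13 (edgeR adjusted p = 0.705; 0.05 ± 0.14 without library 77). With the length trend described below removed, it was -0.11 ± 0.09. Top2a had a log2 fold change of -0.12 ± 0.11, Pcna, the sliding clamp of the fork, 0.00 ± 0.08, and Ccne1 0.00 ± 0.12, and without library 77 these were -0.03 ± 0.11, 0.06 ± 0.08 and 0.06 ± 0.12. The helicase genes Mcm2 and Mcm5 had log2 fold changes of -0.08 ± 0.10 and -0.11 ± 0.09 (0.02 ± 0.09, with the sign turned, and -0.05 ± 0.09 without library 77), while Mcm7, of the same helicase, had -0.26 ± 0.13 (-0.15 ± 0.13 without library 77). Tyms, thymidylate synthase, had -0.21 ± 0.11 (-0.11 ± 0.10 without library 77), and Rrm2, the other subunit of ribonucleotide reductase, -0.20 ± 0.12 (-0.10 ± 0.11 without library 77). Gins2 had 28.70 to 40.41 CPM with the WT combination and 35.26 to 45.96 CPM with isotype (log2 fold change -0.22 ± 0.10, edgeR adjusted p = 0.215; -0.16 ± 0.11 without library 77).

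Leukocyte markers differed the other way in the same tumors. All 6 leukocyte markers were higher with the WT combination at an unadjusted p under 0.05 (median log2 fold change 0.96, background 13.2% of all genes higher), and 1 of the 6 without library 77 (median 0.40, background 2.8%), and their summed level was 1004 to 4388 CPM against 950 to 1099 CPM with isotype. The summed T cell markers had a median of 39.75 CPM (23.27 to 245.1), against 48.72 CPM (21.27 to 62.68) with isotype. By flow cytometry the study found similar densities of leukocytes per volume of tumor in all treatment groups. Ptprc, encoding the leukocyte antigen CD45 (chr1:138062861-138175708, minus strand), had 127.6, 176.4, 106.6, 125.3 and 134.2 CPM with isotype and 158.3, 152.4, 248.0, 169.8 and 782.4 CPM with the WT combination. The mean log2 CPM of Ptprc was higher by 0.86 (2-sided exact permutation test, p = 0.0317, adjusted over the 7 treatments 0.139). Within libraries 41 to 60 and 61 to 80 this difference was 0.05 and 1.40. Without library 77 it was 0.43 (2-sided exact permutation test, unadjusted p = 0.0476), and 0.76 within libraries 61 to 80. With Ptprc as a covariate, 3 of the 41 genes were lower at an unadjusted p under 0.05 in place of 15 (1.77% of all genes), and the median log2 fold change was -0.13. The part of the leukocytes in these differences was not tested.

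With the FcD combination, most of the 41 genes were again below isotype, and again none passed the adjusted test. None of the 41 genes had an adjusted p under 0.05 in edgeR's test (0% of all genes), and 0 of the 41 did in DESeq2's. At an unadjusted p under 0.05, 19 of the 41 genes were lower (background 5.85%) and 0 were higher (background 10.7%) by edgeR, and 19 and 0 by DESeq2 (3.14% and 6.36% of its genes). The log2 fold change was below 0 for 40 of 41 genes (background 50.7%), with a median of -0.24. The lower genes were 16 of 26 G2/M genes (median -0.26) and 3 of 15 G1/S genes (Mybl2, Gins2 and Rrm2; median -0.15). Without libraries 71 and 77, 16 of the 41 were lower (4.25% of all genes) and the median was -0.19. With 1 mouse left out at a time, the count ran from 10 without the first or the fourth mouse of the FcD combination (2.68% and 2.64% of all genes) to 30 without the fifth (5.93%).

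Ccna2 (chr3:36564865-36572150, minus strand) had the smallest p of the 41 genes with the FcD combination. It had 218.1, 232.3, 232.1, 235.4 and 240.1 CPM with isotype and 147.1, 181.4, 186.1, 151.7 and 225.1 CPM with the FcD combination. The fifth treated tumor lay among the controls and the other 4 lay below them. Their difference is a log2 fold change of -0.38 ± 0.11 (edgeR unadjusted p = 0.00189, adjusted p = 0.225). With the WT combination Ccna2 had 201.1, 185.5, 231.9, 210.9 and 125.5 CPM (log2 fold change -0.28 ± 0.11), and without library 77 its log2 fold change was -0.16 ± 0.10 (edgeR unadjusted p = 0.110). Cdca3 was again lowest, with 50.66, 94.12, 61.16, 52.87 and 71.28 CPM and a log2 fold change of -0.43 ± 0.16 (edgeR adjusted p = 0.240). Its second tumor, library 50, exceeded 4 of the 5 controls.

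Ube2c had 170.9, 257.4, 222.0, 192.9 and 259.5 CPM with the FcD combination and was the 1 gene of the 41 that was lower with no overlap (background 1.29%; log2 fold change -0.38 ± 0.15). Rrm2 had 170.8, 187.8, 188.2, 150.6 and 237.7 CPM, against 215.3 to 241.6 CPM with isotype (log2 fold change -0.30 ± 0.12, edgeR adjusted p = 0.245). All 5 values of Rrm2 but the fifth were below the controls. Gins2 had 30.92, 34.99, 34.30, 26.50 and 39.23 CPM (log2 fold change -0.29 ± 0.10, edgeR adjusted p = 0.240), while Pcna (-0.09 ± 0.08) and Mcm2 (-0.09 ± 0.10) were closer to isotype. E2f1 had the highest log2 fold change of the 41 genes (0.01 ± 0.12), and that of Mki67 was -0.02 ± 0.13. Aurkb (-0.29 ± 0.10, edgeR adjusted p = 0.238) and Plk1 (-0.31 ± 0.13, edgeR adjusted p = 0.252) were below all isotype tumors in 4 of the 5 treated tumors each.

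Leukocyte markers were again higher, 3 of 6 at an unadjusted p under 0.05 (background 10.7% of all genes higher; median log2 fold change 0.71; summed level 951 to 1958 CPM). The summed T cell markers had a median of 46.99 CPM (23.76 to 100.9), against 48.72 CPM with isotype. Ptprc had 282.2, 106.8, 260.3, 277.0 and 274.5 CPM, and its mean log2 CPM was higher than isotype by 0.78 (2-sided exact permutation test, p = 0.0397, adjusted over the 7 treatments 0.139), or by 0.40 and 1.18 on the low and high side of the library numbers. With Ptprc as a covariate, 6 of the 41 genes were lower at an unadjusted p under 0.05 in place of 19 (1.91% of all genes), and the median was -0.19. The tumor with the lowest Ptprc of the group, library 50, had the highest Cdca3. Its slope of long over short transcripts, described below, was -0.49, against 0.37 to 0.48 in the rest of the group. What part either had in Cdca3 was not tested. The summed fat markers ran from 66.2 to 631 CPM, highest in library 71, against 26.8 to 106 CPM with isotype. The part of leukocytes and fat in the lower levels of the 41 genes was not tested.

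The FcD form set against the WT form, each with anti-PD-1, gave no gene of the 41 at an unadjusted p under 0.05 and none at an adjusted p under 0.05 in edgeR's test (0% of all genes). Of all genes 0.813% were higher and 0.488% lower at the unadjusted threshold, and DESeq2 gave 0 of the 41 as well. The sign was below 0 for 36 of the 41 genes (background 56.4%). The log2 fold changes ran from -0.23 (Ccne2) to 0.03 (Plk1) with a median of -0.04. Without library 77 the median was -0.12, with all 41 below 0 and 2 lower at an unadjusted p under 0.05 (Ccna2 and Foxm1; 1.46% of all genes lower), and without the third mouse of the WT combination (library 64) it was 0.02, so its direction turns with 1 tumor. It was 0.01 without library 44 or library 71 and -0.12 without library 80. The smallest p was that of Ccne1 (log2 fold change -0.18 ± 0.12, 95% interval -0.42 to 0.07; edgeR unadjusted p = 0.148). For Cdca3 the difference was -0.01 (-0.14 ± 0.15 without library 77) with a 95% interval of -0.33 to 0.32, so differences between the 2 forms within that range were not detectable here. All 5 mice of each combination entered this comparison, and each group had been set against the same isotype tumors above.

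With the TGF-β combination Kif11 was the lowest and Birc5 the highest of the 41 genes, and no gene passed the adjusted test. None of the 41 had an adjusted p under 0.05 in edgeR's test (0% of all genes), and DESeq2 called 0 of the 41. At an unadjusted p under 0.05, 7 were lower (Mybl2, Foxm1, Bub1, Cenpe, Kif11, Kif23 and Mki67; background 11.6%) and 0 were higher (background 8.49%) by edgeR, and 7 and 0 by DESeq2 (5.79% and 4.71% of its genes). With the length trend removed, 3 were lower by edgeR (8.35%). The log2 fold change was below 0 for 22 of 41 genes (background 47.1%), with a median of -0.02 (-0.05 to 0.00 with 1 mouse left out). The count of 7 was 2 without the third mouse of the group (library 62; 6.56% of all genes). Without the first mouse of this group (library 53), 3 of the 41 genes had an adjusted p under 0.05 in edgeR's test (Kif11, Kif23 and Mki67, named after their values were seen), among 2013 of all genes. Without the third isotype mouse Kif11 alone did, among 749.

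Kif11 (chr19:37376403-37421859, plus strand, 22 exons) had both the lowest log2 fold change and the smallest p. It had 67.81, 82.11, 48.18, 68.60 and 83.96 CPM with isotype and 71.01, 48.70, 37.34, 58.72 and 38.52 CPM with the TGF-β combination. The groups overlap, with 2 treated tumors below all controls. Its log2 fold change was -0.46 ± 0.17 (edgeR unadjusted p = 0.0115, adjusted p = 0.161), and -0.34 ± 0.14 with the length trend removed. Mki67 (chr7:135689784-135716361, minus strand) had 254.9, 175.3, 151.4, 183.2 and 188.3 CPM, 4 of the 5 below all isotype tumors, and a log2 fold change of -0.31 ± 0.13 (edgeR adjusted p = 0.204). With the length trend removed its log2 fold change was -0.04 ± 0.09.

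Foxm1 had a log2 fold change of -0.31 ± 0.14, Bub1 -0.26 ± 0.11, Cenpe, a motor of the kinetochore, -0.26 ± 0.13, and Kif23, a motor of cytokinesis, -0.31 ± 0.12. Birc5, encoding survivin (chr11:117849251-117855743, plus strand), was at the other end. It had 115.0, 118.5, 152.1, 120.1 and 131.3 CPM with isotype and 101.6, 160.3, 185.4, 144.2 and 161.5 CPM with the TGF-β combination, where the first tumor was the lowest of all 10 and 3 tumors exceeded every control. Its log2 fold change was 0.24 ± 0.15 (edgeR adjusted p = 0.355), and -0.01 with the length trend removed. Aurkb (119.1, 114.1, 116.5, 116.3 and 115.9 CPM) and Bub1b, another checkpoint kinase (77.15, 71.56, 71.27, 79.80 and 75.89 CPM, against 81.01 to 86.52 CPM with isotype), were the 2 genes that were lower with no overlap (background 1.29%). Their log2 fold changes were -0.17 ± 0.10 and -0.15 ± 0.09. The mean log2 CPM of Ptprc differed from isotype by 0.13 in this group, and by -0.06 without library 53.

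With anti-PD-1 alone every G2/M gene had a log2 fold change below 0 against isotype, and no difference passed a threshold in edgeR's test. The log2 fold change was below 0 for 38 of the 41 genes and for 26 of 26 G2/M genes (background 47.1%), with a median of -0.11. These genes varied together and were set against the same isotype tumors, so their signs are not separate observations. None of the 41 had an adjusted p under 0.05 in edgeR's test (0% of all genes), and 0 had an unadjusted p under 0.05 (background 0.352% lower and 0.603% higher). DESeq2's Wald test gave 0 at the adjusted and 1 at the unadjusted threshold (0.355% of its genes lower). With only these 2 groups in the edgeR model, 10 of the 41 were lower at an unadjusted p under 0.05 (0.644% of all genes) and 0 passed the adjusted test, and with the length trend removed 2 were lower (0.447%). Foxm1 was lowest (212.6, 259.5, 232.0, 255.0 and 275.1 CPM, against 290.9, 275.9, 261.6, 297.0 and 294.5 CPM with isotype; log2 fold change -0.20 ± 0.14). Bub1b had the smallest p, with 71.19, 74.57, 75.76, 69.30 and 78.48 CPM. It was the 1 gene of the 41 that was lower with no overlap (background 0.163%), and its log2 fold change was -0.18 ± 0.09 (edgeR unadjusted p = 0.0545). The highest log2 fold change was that of Ccne2 (0.07 ± 0.17).

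With the 3 antibodies given without anti-PD-1, no gene of the 41 passed a threshold, and the medians were small. With anti-GARP:TGF-β1 WT the median log2 fold change was -0.03 (below 0 for 23 of 41 genes, background 46.3%), from -0.19 ± 0.17 (Kif11) to 0.11 ± 0.16 (Cdca3), and the smallest unadjusted edgeR p was 0.155 (Bub1). With anti-GARP:TGF-β1 FcD the median was also -0.03 (below 0 for 30, background 51%), from -0.10 ± 0.13 (Cenpe) to 0.12 ± 0.13 (Mcm7, another helicase subunit), and the smallest unadjusted edgeR p was 0.279 (Mcm4). With anti-TGF-β the median was -0.05 (below 0 for 28, background 45.1%), from -0.14 ± 0.14 (Foxm1) to 0.14 ± 0.08 (Mcm4), with a smallest unadjusted edgeR p of 0.0963 (Mcm4). None of the 41 had an unadjusted p under 0.05 in these 3 comparisons, where 0.583%, 0.264% and 1.77% of all genes were higher and 0.386%, 0.21% and 0.549% lower, and 0% had an adjusted p under 0.05. Leaving out the third isotype mouse gave 1 of the 41 lower with anti-GARP:TGF-β1 WT at the unadjusted threshold (3.12% of all genes). With 1 mouse left out the medians ran from -0.05 to -0.01 and from -0.06 to -0.01 for the 2 forms of anti-GARP:TGF-β1, and from -0.09 (without library 72) to 0.03 (without library 48) for anti-TGF-β, whose direction thus turns with 1 tumor. The high fibroblast, fat and neutrophil markers of library 48 are given above, and their part in this was not tested. A missed threshold does not show that the levels were the same. The interval of the largest of these differences, that of Kif11 with anti-GARP:TGF-β1 WT, ran from -0.54 to 0.16 (95%).

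The combinations were also set against anti-PD-1 alone, which asks what the added antibody changed, and these 3 comparisons share the anti-PD-1 tumors. With anti-GARP:TGF-β1 WT added, Gins2 and Cdca3 were lower at an unadjusted p under 0.05 (2 of 41, background 5.99%), and 0 were higher (background 11.2%). Gins2 had 48.30, 38.22, 41.94, 38.56 and 39.24 CPM with anti-PD-1 and 36.25, 36.88, 40.41, 30.76 and 28.70 CPM with the WT combination (log2 fold change -0.25 ± 0.10, edgeR adjusted p = 0.242). Cdca3 was lowest (-0.33 ± 0.16), Mki67 highest (0.24 ± 0.13), and the median was -0.05 (below 0 for 31 of 41, background 49.6%). Without library 77 the median was 0.02 (below 0 for 15 of 41) and 0 genes were lower (3.24% of all genes), so its direction turns with that tumor, and without library 64 it was -0.11 with 4 lower (4.51%). The log2 fold changes of Gins2 and Cdca3 were -0.19 ± 0.11 and -0.20 ± 0.15 without library 77. With the FcD form added, 5 of 41 were lower (Ccne2, Gins2, Ccna2, Ccnb2 and Cdca3; background 4.27%) and 0 higher (background 6.46%) by edgeR, and 4 were lower by DESeq2 (2.24% of its genes). Ccne2 was lowest (-0.37 ± 0.17), Gins2 had the smallest p (-0.31 ± 0.10, edgeR adjusted p = 0.458), Mki67 was highest (0.13 ± 0.13, and -0.04 with the length trend removed), and the median was -0.11 (below 0 for 37 of 41, background 51.3%). With 1 mouse left out the count of 5 ran from 1 without library 44 or library 71 (2.01% and 1.96% of all genes) to 12 without library 80 (4.26%), and the median from -0.18 (without library 80) to -0.06 (without library 71).

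With anti-TGF-β added to anti-PD-1, Birc5 and Cenpa were higher at an unadjusted p under 0.05 (2 of 41, background 7%) and 0 were lower (background 10.1%). Without library 53, 7 were higher (12% of all genes) and 3 lower (16.5%), and with Ptprc as a covariate 9 were higher (14.7%) and 2 lower (15.4%). Birc5 had 114.1, 109.1, 123.0, 104.7 and 116.7 CPM with anti-PD-1, below 4 of the 5 tumors of the combination and above its first (log2 fold change 0.41 ± 0.15, edgeR adjusted p = 0.199). Cenpa had a log2 fold change of 0.22 ± 0.10, Kif11 was lowest (-0.35 ± 0.17), and the median was 0.03 (below 0 for 15 of 41, background 49.6%). Without library 53 the log2 fold change of Birc5 was 0.53 ± 0.15 (edgeR adjusted p = 0.0236). Of all genes 1 had an adjusted p under 0.05 in edgeR's test in this comparison (0.00678%), and 0 of the 41 did. Against anti-PD-1, 0% of all genes passed with either form of anti-GARP:TGF-β1.

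Further genes of the pathway, listed by their known roles, were counted in the same way. Of 73 further cell cycle genes in the table, among them origin factors, DNA polymerases, condensins and spindle proteins, 22 were lower and 0 higher with the WT combination at an unadjusted p under 0.05 against isotype (median log2 fold change -0.15; background 7.47% lower and 13.2% higher). Without library 77, 4 were lower (median -0.07; background 3.04%). With the FcD combination 29 were lower and 0 higher (median -0.21; background 5.85% and 10.7%), and with the TGF-β combination 17 were lower and 4 higher (median -0.05; background 11.6% and 8.49%). The smallest p belonged to Kif22, a chromosome motor, with the WT combination (-0.44 ± 0.15, edgeR adjusted p = 0.159), to Melk, a mitotic kinase, with the FcD combination (-0.37 ± 0.10, edgeR adjusted p = 0.225), and to Hjurp, the chaperone of Cenpa, with the TGF-β combination (-0.29 ± 0.09, edgeR adjusted p = 0.135). With anti-PD-1 alone 2 were lower and 0 higher (background 0.352% and 0.603%). Of 13 inhibitors of the cycle, 3 were higher and 2 lower with the WT combination (background 13.2% and 7.47%), and 1 was higher and 3 lower with the FcD combination (background 10.7% and 5.85%), with the smallest p in each for Trp53 (-0.42 ± 0.11, edgeR adjusted p = 0.159, and -0.32 ± 0.11, edgeR adjusted p = 0.235). Without library 77, 0 inhibitors were higher and 1 lower with the WT combination (background 2.8% and 3.04%). Cdkn1c, among the 3 higher with the WT combination, had only 0 to 32 reads per tumor (median 0.35 CPM). The counts of inhibitors held both directions.

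**Figure D3:**
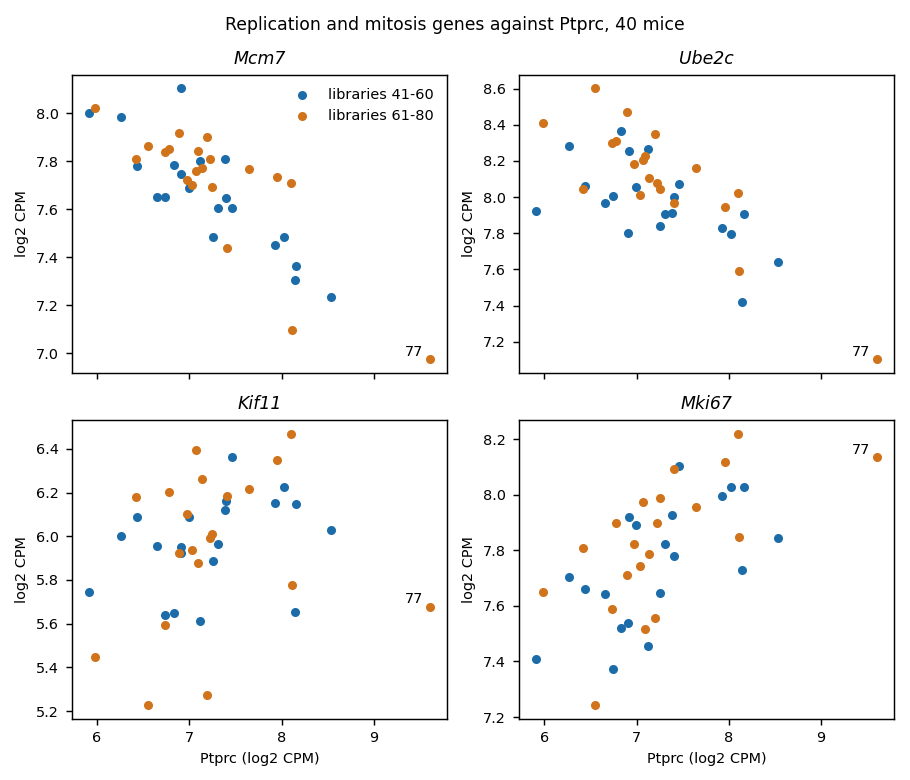
Log2 CPM of Mcm7, Ube2c, Kif11 and Mki67 against log2 CPM of Ptprc, 1 point for each of the 40 tumors, colored by library number, with library 77 marked. Mcm7 and Ube2c are lower where Ptprc is higher (r = -0.82 and -0.72), Mki67 is higher (r = 0.62), and Kif11 shows little relation (r = 0.23).

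Across the 40 tumors, most of the 41 genes were lower where Ptprc was higher. Pearson's r was tested for every gene against Ptprc with 100000 permutations of the tumors and adjusted over 14759 genes. Of the 41 genes 26 had an adjusted p under 0.05 with r below 0 (background 34.1% of all genes), and 1 with r above 0 (background 34.6%). The r was below 0 for 35 of 41 (background 49.6%), with a median of -0.44 against 0.01 for all genes. Ptprc itself ranged over the tumors from 59.90 to 782.4 CPM, the latter in library 77.

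Mcm7 (chr5:138164583-138172422, minus strand) had the lowest r of -0.82, and Cdca3 (-0.79) and Ube2c (-0.72) followed. For each of the 3, p was 1e-05, the smallest that the permutation test can give, and the adjusted p was 3.55e-05. Their Spearman's rho was -0.74 and -0.75 (p = 1e-05 each) for Mcm7 and Cdca3, and -0.62 (p = 6e-05) for Ube2c. In library 77, which has the highest Ptprc, all 3 were at their lowest level of the 40 tumors (125.6 CPM for Mcm7, 41.02 CPM for Cdca3 and 137.3 CPM for Ube2c). Without the 2 tumors farthest from the median Ptprc (libraries 48 and 77), r was -0.73 for Mcm7, -0.69 for Cdca3 and -0.57 for Ube2c. With group means removed r was -0.76, -0.74 and -0.67 in the same order.

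Mki67 went the other way, with r = 0.62 and rho = 0.67 (permutation test, p = 2e-05 and 3e-05, adjusted p = 6.35e-05 and 0.000107). It was the only one of the 41 genes with an adjusted p under 0.05 and r above 0. Kif11 (r = 0.23, adjusted p = 0.189; rho = 0.35, adjusted p = 0.0427) and Mcm4 (r = 0.17, adjusted p = 0.348; rho = 0.26, adjusted p = 0.144) came next, all by permutation test. Without libraries 48 and 77, r was 0.63 for Mki67, 0.39 for Kif11 and 0.31 for Mcm4. Cenpe (0.13), Cenpf (0.06) and Top2a (0.01) had an r near 0 over the 40 tumors, and of 0.44, 0.42 and 0.38 without libraries 48 and 77 (permutation test, adjusted p = 0.0110, 0.0162 and 0.0312).

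The counts depended on a few tumors. Without libraries 48 and 77, 13 of the 41 genes had an adjusted p under 0.05 with r below 0 and 5 with r above 0 (31.1% and 30.7% of all genes), and the median r was -0.21. Without library 77 alone the counts were 15 and 4 (31.9% and 32.5% of all genes), and the median r was -0.27. Within libraries 41 to 60 they were 9 and 1 (25.4% and 24.2%; lowest Mcm7, -0.84), and within libraries 61 to 80 they were 20 and 1 (27.1% and 27.4%; lowest Ube2c, -0.86). With group means removed they were 12 and 1 (29.3% and 30.1%). Several of these counts below 0 are near the share of all genes. With the mean of 5 other leukocyte markers in place of Ptprc they were 27 and 1 (32.4% and 30.3%), with r of -0.75 for Mcm7 and 0.45 for Mki67, and the r of Kif11 was -0.05.

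**Figure D4:**
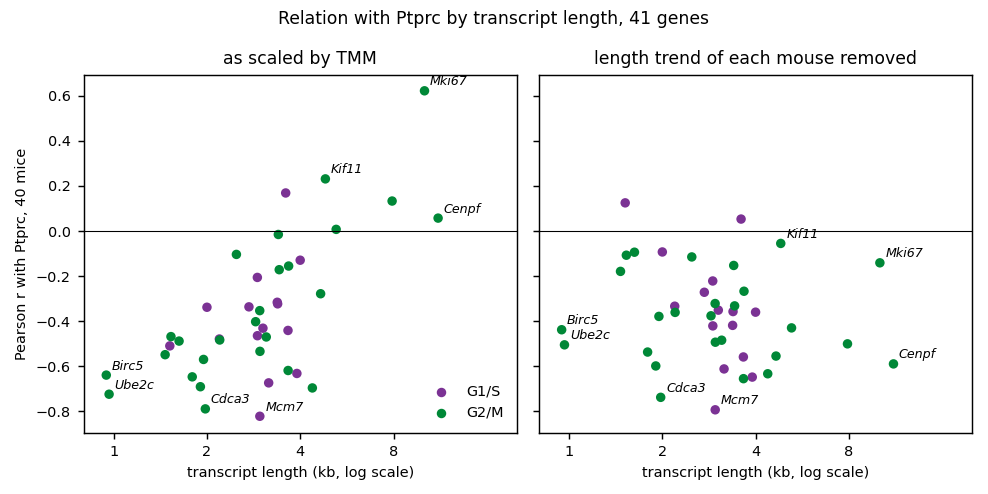
Pearson r with Ptprc over 40 tumors (vertical axis) against transcript length (kb, log scale) for the 41 genes, G1/S genes in purple and G2/M genes in green, as scaled by TMM (left) and with the length trend of each tumor removed (right). On the left r is higher for longer transcripts, from -0.64 for Birc5 and -0.72 for Ube2c to 0.62 for Mki67, and on the right Mki67 is at -0.14 and Cenpf at -0.59.

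The relation with Ptprc varied with transcript length, with exceptions such as Cdk1 (4.375 kb, r = -0.70) and Gins2 (3.9 kb, r = -0.63). The principal transcripts run from 0.947 kb (Birc5) and 0.967 kb (Ube2c) to 10.061 kb (Mki67) and 11.13 kb (Cenpf), with a median of 2965 bases against 2927 bases for all genes with a length. Across the 41 genes, which are not independent replicates, r with Ptprc correlated with log2 transcript length with r = 0.68. The 6 genes of at least 4500 bases (Foxm1, Cenpe, Cenpf, Kif11, Mki67, Top2a) had a median r with Ptprc of 0.10, and the 10 genes under 2000 bases one of -0.60. The tumors themselves carried such a trend over all genes. In each, the running median of log2 CPM, relative to the mean of each gene, differed between transcripts of 8 kb and 1 kb by -0.92 (library 62) to 0.50 (library 69).

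This slope of long over short transcripts rose with Ptprc over the 40 tumors (r = 0.67, rho = 0.77, 2-sided permutation test, p = 1e-05 each, the smallest it can give). Without libraries 48 and 77 r was 0.70, and within libraries 41 to 60 and 61 to 80 it was 0.72 and 0.64. Of the 41 genes Mki67 (r = 0.83) and Kif11 (0.72) followed the slope most closely, and Birc5 (-0.84) and Cdca3 (-0.80) opposed it most closely. Ptprc has a transcript of 4.702 kb, and the part of RNA quality, library preparation or cell makeup in the slope was not tested.

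With the trend of each tumor removed, 4 of the 6 long genes had an r below 0 past the threshold, and Mki67 and Kif11 did not. The relation with Ptprc was then below 0 for 39 of the 41 genes, 25 had an adjusted p under 0.05 with r below 0 (33.4% of all genes) and 0 with r above 0 (30.9%). Mcm7 (r = -0.79) and Cdca3 (-0.74) were almost where they had been, and Ube2c was at -0.51. Mki67 had r = -0.14 (permutation test, adjusted p = 0.446), Kif11 -0.06, Cenpe -0.50, Cenpf -0.59 and Top2a -0.43. The 6 long genes had a median r of -0.47 and the 10 short ones of -0.41. The 10 short genes moved upward, Pcna farthest, from -0.51 to 0.13, and Cenpa from -0.55 to -0.18. The lowest r of a gene with the mean of the other 40 was then 0.31 (E2f1) in place of 0.008 (Mki67), and the median was 0.808. With group means removed as well, 8 of the 41 had an adjusted p under 0.05 with r below 0 (27.2% of all genes), and 0 with r above 0 (25.7%).

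**Figure D5:**
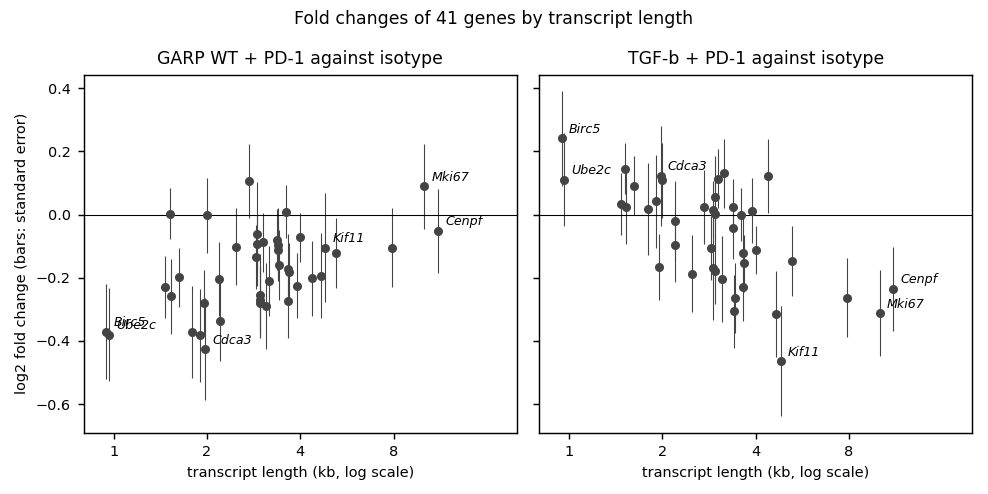
Log2 fold change against isotype with its SE (vertical axis) against transcript length (kb, log scale) of the 41 genes, for the WT combination (left) and the TGF-β combination (right). On the left the short genes are lowest (Cdca3 -0.43, Mki67 0.09), and on the right the long ones are (Kif11 -0.46, Birc5 0.24).

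The fold changes carried the same trend, in opposite directions in different groups. Across the 41 genes the log2 fold change against isotype correlated with log2 transcript length with r = 0.51 for the WT combination, 0.50 for the FcD combination, -0.65 for the TGF-β combination and -0.68 for anti-GARP:TGF-β1 WT alone. With the trend removed these were 0.02, 0.02, 0.11 and 0.13. A weak relation with length, and close medians of long and short genes, are what this removal is made to give. The plot of fold change by length shows both directions. With the TGF-β combination the median log2 fold change was -0.29 for the 6 long genes and 0.07 for the 10 short ones, and with the trend removed it was -0.03 and -0.07. The slope of the groups was 0.04 ± 0.31 with isotype and -0.42 ± 0.48 with the TGF-β combination (SD, n = 5; 2-sided exact permutation test, p = 0.143, adjusted over the 7 treatments 0.611).

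The lower levels with the WT and FcD combinations were about as large with the trend removed, with library 77 included. The median log2 fold change against isotype was then -0.18 for the WT combination and -0.25 for the FcD combination, with 13 and 22 of the 41 genes lower at an unadjusted p under 0.05 (7.67% and 6.57% of all genes). The mean of the 41 genes differed from isotype by -0.19 and -0.23 as before. Mcm7 had a log2 fold change of -0.24 ± 0.13, Cdca3 -0.37 ± 0.13 and Ube2c -0.30 ± 0.12 with the WT combination (edgeR adjusted p = 0.265, 0.148 and 0.169).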

How the data were processed

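Fragments of CT26 tumors of 40 mice were sequenced as stranded mRNA libraries (Illumina TruSeq, paired-end). Per the labels and the study's methods, the authors aligned reads to GRCm38 with STAR 2.5.3a, handled alignments with SAMtools 1.6, counted reads per gene with HTSeq 0.9.1, and deposited raw counts without normalization. Each of the 40 sample columns entered the fits (0 were set aside). The GENCODE release used for counting is not given in the sources used here.

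Counts were scaled with TMM and filtered with filterByExpr (14760 genes, all 41 members included) in edgeR 4.0.16 (limma 3.58.1, R 4.3.3). The robust quasi-likelihood test, 2-sided, used a single model of all 40 mice and Benjamini-Hochberg adjustment over all genes tested. Background percentages count all 14760 genes by the same rule. DESeq2 1.42.0 was the alternative. The SE is the absolute log2 fold change over the root of the F statistic, and 95% intervals use its t distribution. Log2 CPM had a prior count of 2. Correlations with Ptprc used 100000 permutations in numpy 2.4.6, scipy 1.17.1 and pandas 2.3.3 (Python 3.11.15), and figures matplotlib 3.10.9. The length trend of a tumor is the running median, over principal transcript length in GENCODE, of log2 CPM minus the mean of each gene (12413 genes with a length, 84.1%), and it was removed with offsets. Scripts were tested on simulated data.

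The members, gene lists and tests were chosen with earlier results of these data known. Genes were named by a rule: 18 fixed members and Ptprc, in each comparison the members with the highest and lowest log2 fold change and the smallest p, and the 3 lowest and 3 highest r with Ptprc. Further genes named where a count was small were chosen after their values were seen. Replicate numbers were given in accession order. The labels name no cultures or litters, so p-values measure the spread between these mice. The labels carry no extraction date. Among pairs of mice of 1 group none agreed within counting error (80 pairs, lowest chi-square per gene 5.83).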

Additional observations from a re-analysis of the deposited data

Results flagged for a closer look

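The gap of the highest or lowest mouse to the nearest other mouse was set against the range of its group of 5 (Dixon's ratio above 0.71) for the 22 named genes, Ptprc and 2 means, in 200 groups. It marked 15 values, and chance marks about 1 in 20 groups. All values are log2 CPM.

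Library 77, the fifth mouse of the WT combination, was lowest for Cdk1 (6.74, others 7.29 to 7.41), Bub1 (5.83, others 6.29 to 6.47), Cdca3 (5.36, others 6.05 to 6.25) and Ube2c (7.10, others 7.84 to 7.97). The third isotype mouse was highest for Cdk1 (7.53, others 7.42 to 7.44) and for Cdca3 (6.88, others 6.28 to 6.42). The first mouse of the TGF-β combination was lowest for Cenpa (6.61, others 6.88 to 6.98) and for Mcm7 (7.45, others 7.80 to 7.90), and the second was lowest for Mcm4 (6.52, others 6.64 to 6.66). The first mouse of anti-GARP:TGF-β1 FcD was highest for Mcm7 (8.11, others 7.69 to 7.81) and for Ube2c (8.25, others 8.04 to 8.08). The fifth anti-PD-1 mouse was highest for Aurkb (7.03, others 6.78 to 6.84), and the fifth anti-TGF-β mouse was highest for Mcm4 (6.97, others 6.68 to 6.76). With the FcD combination, the fourth mouse (library 71) was lowest for Pcna (7.76, others 8.03 to 8.08), and the second (library 50) was lowest for Ptprc (6.74, others 8.03 to 8.14).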

How the results depend on the processing

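Removing the length trend, leaving out libraries 71 and 77, combining the trend with group means, Spearman's rho without the 2 farthest mice, and the lists and means without library 77 were chosen after seeing the data. Of 672 alternative values other than those with 1 mouse left out, 608 kept their direction and side of the threshold, or stayed within the spread. Of 570 with 1 mouse left out, 527 did. The cause of the other changes was not tested.

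For the WT combination against isotype, members lower at an unadjusted p under 0.05 numbered 3 with Ptprc as a covariate (1.77% of all genes), 1 without libraries 71 and 77 (3.08%), 9 with the 2 groups alone (4.55%), and 0 (without library 77, 3.04%) to 19 (without library 64, 6.1%) with 1 mouse left out, in place of 15 (7.47%). With the FcD combination they numbered 6 with Ptprc as a covariate (1.91%) and 10 (2.68%) to 30 (5.93%) with 1 mouse left out, in place of 19 (5.85%). With the TGF-β combination they numbered 3 without the length trend (8.35%), 12 with the 2 groups alone (9.82%), and 2 (6.56%) to 8 (16.1%) with 1 mouse left out, in place of 7 (11.6%). With anti-PD-1 alone they numbered 10 with the 2 groups alone (0.644%), in place of 0 (0.352%). In place of 0, members with an adjusted p under 0.05 numbered 1 with Ptprc as a covariate (of 1308 genes) and 0 to 3 with 1 mouse left out for the TGF-β combination against isotype, and 1 (of 1357 genes) and 0 to 1 against anti-PD-1. Between the sides of the library numbers they were 1 with Ptprc as a covariate (of 596 genes), 1 without the length trend (of 390), 3 without libraries 71 and 77 (of 490), and 0 to 2 (of 352, without library 77) with 1 mouse left out, in place of 0 (of 248).

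Members with r below 0 with Ptprc past the threshold (26, 34.1% of all genes) numbered 15 by Spearman's rho (31.6%), 12 with group means removed (29.3%), 9 in libraries 41 to 60 (25.4%), 13 without the 2 farthest mice (31.1%), 14 without libraries 71 and 77 (30.8%), 11 by rho without the farthest (30.0%), 8 without the length trend and group means (27.2%), and 15 (31.9%, without library 77) to 27 (33.8%, without the first anti-PD-1 mouse) with 1 mouse left out. Those with r above 0 (1, 34.6%) numbered 2 by rho (31.4%), 5 without the farthest (30.7%), 0 without the length trend (30.9%), 6 without libraries 71 and 77 (30.9%), 5 by rho without the farthest (29.1%), 0 without the trend and group means (25.7%), and 1 (34.6%, without the first isotype mouse) to 4 (32.5%, without library 77) with 1 mouse left out. The median r (-0.44) was -0.24 by rho, -0.31 with group means removed, -0.21 without the farthest, -0.19 without libraries 71 and 77, -0.13 by rho without the farthest, -0.31 without the trend and group means, and -0.48 to -0.27 with 1 mouse left out. Among the values compared here, the sign turned for the r of Kif11 with 5 other leukocyte markers (-0.0464) and without the length trend (-0.0550), for the r of Mki67 without it (-0.14), for the log2 fold change of Birc5 with the TGF-β combination against isotype without it (-0.0064), and for that of Mki67 with the FcD combination against anti-PD-1 with Ptprc as a covariate (-0.0627) and without the trend (-0.0401). Without the trend it also turned for the r of Cenpe, Cenpf, Top2a and Pcna and for the log2 fold change of Mki67 with the WT combination against isotype (-0.11).

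No paired analysis was possible because the replicate numbers were given in accession order and pair no mice.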
